A study of Homo sapiens with 6 samples.

Results

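The replication-dependent histone genes are the 69 protein-coding genes on chromosomes 1 to 22 of GRCh38 (RefSeq annotation) whose symbols mark them as H1-1 to H1-6 or as numbered members of the H2AC, H2BC, H3C and H4C series, of 19126 protein-coding genes on those chromosomes. They comprise 6 genes for linker histone H1, 17 for H2A, 18 for H2B, 13 for H3 and 15 for H4. Chromosome 6 carries 55 of them and chromosome 1 carries 13, while H4C16 lies alone on chromosome 12. Accessibility was measured in 6 libraries of GM12878, a B lymphoblastoid line immortalised by Epstein-Barr virus. Of these, 2 came from cells sorted for high staining of H3K27ac (an acetylated lysine found at active promoters and enhancers), 2 from cells sorted for low staining and 2 from live, unsorted cells. All cells came from the same untreated line at a passage number below 10. The sorted cells were fixed for 5 min in 1.6% paraformaldehyde and profiled by InTAC-seq, which adapts ATAC-seq (insertion of adapters into open DNA by the transposase Tn5) to cells that were fixed and stained. Sorted cells were counted out into replicates of 50000 cells, so replicates are aliquots of 1 line and their spread may be technical. The smallest p that exact permutation of 2 libraries against 2 allows is 0.333, so no p-value is given for any comparison of groups.

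Replication-dependent histone genes supply the proteins that package newly made DNA, and their transcription rises as cells enter S phase. They lie in clusters gathered in a nuclear structure, the histone locus body, which is organised by the coactivator NPAT. Their messages have no introns and end in a stem-loop bound by SLBP instead of a poly(A) tail. H2A and H2B genes often stand head to head and share 1 promoter region. Linker histone genes lie in the same clusters but encode the protein that binds DNA between nucleosomes. H1-1 is found in few tissues, and H1-6, H2AC1 and H2BC1 are known from the male germ line.

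The 69 genes fell into 6 stretches in which neighbouring members were less than 500 kb apart. The largest, on chromosome 6 from 25726063 to 26285534, held 34 genes in 559 kb, and a second stretch on that chromosome, from 27807479 to 27893891, held 16 genes in 86.4 kb. Another 5 genes lay between them at 27132316 to 27147562. On chromosome 1, 11 genes lay at 149782689 to 149887965 and the pair H2AC25 and H2BC26 at 228457364 to 228458558. Only 7 other protein-coding genes lay inside these stretches.

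Promoter sequences show how the classes differ. RefSeq promoters on GRCh38.p14, each of 250 bases before and 50 after a gene's start, were matched for 64 of the 69 genes, and H2AC12, H3C11, H3C12, H4C1 and H4C3 were not matched. Both strands were searched for 8 motifs. The TATA box, where the transcription machinery docks, was searched as TATAAA. The CCAAT box was searched by the 5 letters of its name. The octamer, a site known for the factor POU2F1, was searched as ATTTGCAT. The core of H4 site II, the element that HINFP binds in H4 promoters, was searched as GGTCCG. The AC box of H1 genes was searched as AAACACA. The other motifs were the CRE (TGACGTCA), the GC box (GGGCGG) and the E2F site in either of its forms (TTTCGCGC or else TTTGGCGC). Motifs can overlap, as where the CCAAT box adjoins the H4 site II core or an E2F match. A match is a description of the letters and no evidence that a factor is bound.

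The next 4 stretches lie between the starts of head-to-head H2A and H2B genes and are shown because a single region there serves both genes. They are given on the plus strand of GRCh38.p14, at chr6:26216689-26216920, chr6:27132796-27133042, chr6:27838376-27838568 and chr6:25726563-25726776 in that order. Capitals mark matches to the 8 motifs on either strand. H2BC8 and H2AC8 have an octamer, H2AC15 and H2BC15 have none, and the last pair is the germ line one.
H2BC8 and H2AC8: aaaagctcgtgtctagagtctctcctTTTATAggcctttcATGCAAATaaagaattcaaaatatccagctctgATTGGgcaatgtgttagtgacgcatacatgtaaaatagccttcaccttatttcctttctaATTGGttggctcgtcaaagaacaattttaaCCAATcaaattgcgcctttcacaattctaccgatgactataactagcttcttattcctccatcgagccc
H2BC11 and H2AC11: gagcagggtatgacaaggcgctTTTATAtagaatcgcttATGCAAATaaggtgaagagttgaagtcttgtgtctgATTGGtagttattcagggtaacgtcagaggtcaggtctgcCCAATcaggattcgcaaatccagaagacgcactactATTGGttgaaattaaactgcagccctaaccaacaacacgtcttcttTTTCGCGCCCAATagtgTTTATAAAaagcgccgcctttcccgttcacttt
H2AC15 and H2BC15: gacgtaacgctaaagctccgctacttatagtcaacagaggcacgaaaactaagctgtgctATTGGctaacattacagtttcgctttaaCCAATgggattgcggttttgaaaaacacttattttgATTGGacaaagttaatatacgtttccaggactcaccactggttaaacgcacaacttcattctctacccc
H2AC1 and H2BC1: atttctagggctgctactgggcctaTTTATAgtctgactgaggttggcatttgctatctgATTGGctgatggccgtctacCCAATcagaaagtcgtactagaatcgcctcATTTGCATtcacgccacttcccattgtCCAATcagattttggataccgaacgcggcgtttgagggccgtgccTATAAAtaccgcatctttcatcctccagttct

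The octamer was found in 11 of 16 H2A promoters and 14 of 18 H2B promoters, and in no H1, H3 or H4 promoter, against 1.77% of 35116 promoters of the same length. Promoters of a head-to-head pair overlap, so the H2A and H2B counts are not independent of each other. An E2F match was present in 5 H2A and 6 H2B promoters, with 1.15% of all promoters holding one. The CCAAT box was present in all 6 H1, 16 H2A, 18 H2B and 11 H3 promoters, but in 3 of 13 H4 promoters, against 34.6% of all promoters. TATAAA was found in 43 of the 64 histone promoters and in 11.5% of all promoters.

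The next 6 sequences are the 120 bases before the start of the linker histone genes, each on its own gene's strand, shown because the starts of the H1 genes are compared in detail further on. All 6 genes are on the minus strand except H1-4. Positions are chr6:26056471-26056590 for H1-2, chr6:26234988-26235107 for H1-3, chr6:26156209-26156328 for H1-4, chr6:27867589-27867708 for H1-5, chr6:26017788-26017907 for H1-1 and chr6:26108136-26108255 for H1-6. Capitals mark the same motifs.
H1-2: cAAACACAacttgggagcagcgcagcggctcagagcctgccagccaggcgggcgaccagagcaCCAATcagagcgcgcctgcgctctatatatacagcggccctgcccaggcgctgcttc
H1-3: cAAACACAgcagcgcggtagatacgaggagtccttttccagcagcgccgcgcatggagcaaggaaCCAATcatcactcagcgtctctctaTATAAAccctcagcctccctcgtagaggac
H1-4: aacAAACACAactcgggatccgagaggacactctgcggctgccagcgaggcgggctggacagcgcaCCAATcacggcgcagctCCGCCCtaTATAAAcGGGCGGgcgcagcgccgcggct
H1-5: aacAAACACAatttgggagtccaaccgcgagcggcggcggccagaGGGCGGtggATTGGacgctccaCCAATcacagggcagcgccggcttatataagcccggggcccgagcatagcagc
H1-1: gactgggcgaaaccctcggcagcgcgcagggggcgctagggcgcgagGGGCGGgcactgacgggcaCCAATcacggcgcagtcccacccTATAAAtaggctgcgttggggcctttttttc
H1-6: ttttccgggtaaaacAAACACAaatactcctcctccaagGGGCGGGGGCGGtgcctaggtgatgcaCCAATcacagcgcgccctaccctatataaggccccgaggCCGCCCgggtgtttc

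AAACACA was found in all 6 H1 promoters, in 1 H2A promoter, in 2 H3 promoters and in no H2B or H4 promoter, against 5.64% of all promoters. In 5 of the H1 genes it lies within the printed bases, and in H1-1 it lies outside them. The GC box was found in 4 of 6 H1 promoters and in 8 of 13 H4 promoters, while 45.0% of all promoters held it.

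The following 6 sequences are the 120 bases before the start of H4 genes, on each gene's strand, shown to set strongly ranked genes (H4C8, H4C4) beside a gene with no summit (H4C7) and beside near-identical copies (H4C11, H4C12, H4C14). Positions are chr6:26285535-26285654 for H4C8, chr6:26189113-26189232 for H4C4, chr6:26246997-26247116 for H4C7, chr6:27823972-27824091 for H4C11, chr6:27831561-27831680 for H4C12 and chr1:149832537-149832656 for H4C14. H4C11 and H4C14 are on the plus strand and the other 4 genes on the minus strand.
H4C8: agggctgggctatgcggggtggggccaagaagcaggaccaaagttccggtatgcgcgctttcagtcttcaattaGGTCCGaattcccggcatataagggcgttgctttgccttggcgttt
H4C4: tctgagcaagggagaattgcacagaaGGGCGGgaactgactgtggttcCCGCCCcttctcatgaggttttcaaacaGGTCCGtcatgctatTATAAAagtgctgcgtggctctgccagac
H4C7: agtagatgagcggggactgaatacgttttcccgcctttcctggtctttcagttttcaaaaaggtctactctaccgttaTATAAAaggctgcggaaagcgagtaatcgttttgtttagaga
H4C11: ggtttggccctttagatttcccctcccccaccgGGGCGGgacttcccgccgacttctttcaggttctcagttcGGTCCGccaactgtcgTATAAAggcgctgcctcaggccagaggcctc
H4C12: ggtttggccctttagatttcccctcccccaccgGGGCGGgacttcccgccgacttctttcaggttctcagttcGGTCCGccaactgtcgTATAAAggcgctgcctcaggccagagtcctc
H4C14: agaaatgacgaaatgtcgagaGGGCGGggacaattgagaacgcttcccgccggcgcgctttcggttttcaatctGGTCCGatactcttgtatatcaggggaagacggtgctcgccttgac

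GGTCCG was present in 12 of 13 H4 promoters, the exception being H4C7, against 11.3% of all promoters. It was found in 1 H2A, 1 H2B and 1 H3 promoter and in no H1 promoter. The CRE was found in 9 of the 64 promoters, 3 of them H3, against 1.85% of all promoters. Of the 15 histone promoters with GGTCCG 12 were H4, and of the 9 with AAACACA 6 were H1, while all 25 with the octamer were H2A or H2B.

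**Figure D1:**
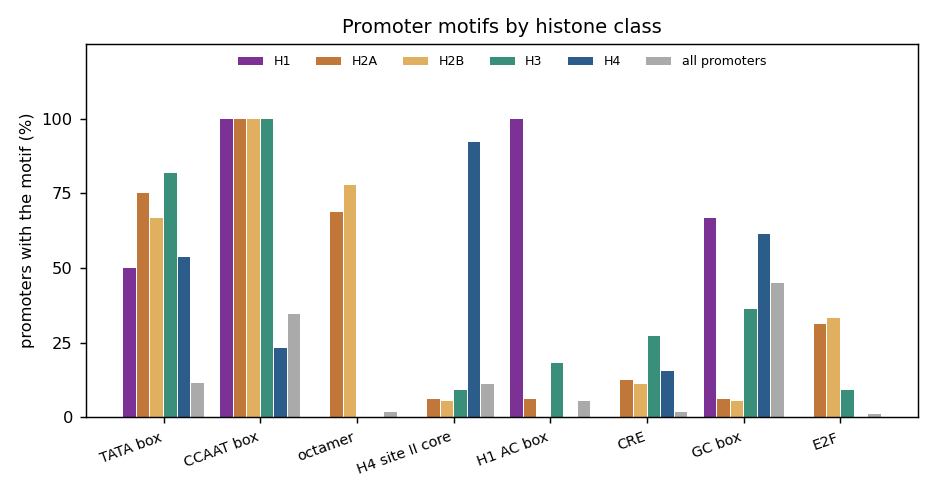
Share of promoters (percent, vertical axis from 0) that hold each of 8 motifs on either strand, for each histone class and for all 35116 promoters (grey). The octamer is found in 68.8% of H2A and 77.8% of H2B promoters, the H4 site II core in 92.3% of H4 promoters and the AC box in 100.0% of H1 promoters.

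The deposited data are 1 list of accessible summits per library, each summit a single base with the peak caller's score. On chromosomes 1 to 22 the lists held 24798 and 45092 summits in H3K27ac high, 40489 and 50198 in H3K27ac low and 67823 and 70083 in the live control. Lists this unequal cannot be set side by side directly, so each was ranked by score (rank 1 best) and cut to its best 24798 summits. That is the full length of the shortest list, replicate 1 of H3K27ac high. The lowest score kept was 2.04 and 11.9 in H3K27ac high, 9.59 and 13.94 in H3K27ac low and 16.92 and 18.3 in the live control. Read counts are not part of the lists, so sequencing depth is unknown, and ranks describe a library's own list. Markers of the B cell lineage were open in all 6 libraries for 5 of 10 genes, among them MS4A1 and CD74, while CR2 had no summit in the cut lists. T cell markers were open in all 6 for 2 of 5 (CD3E and CD8A), and myeloid and erythroid markers for none of 5 and none of 4.

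A gene counted as open where a summit of the cut list lay within 1 kb of either annotated end. Most replication-dependent histone genes were open, and in similar number in every group. In H3K27ac high 54 and 53 of the 69 genes were open, in H3K27ac low 55 and 53, and in the live control 52 and 53. Over all 19126 genes the counts were 8605 and 9202 in high, 9609 and 9595 in low and 9486 and 9470 in the live control. The mean was 53.5 ± 0.707 in high, 54.0 ± 1.41 in low and 52.5 ± 0.707 in the live control (SD, n = 2 each). The high and low groups differed by -0.5 genes, less than the spread between replicates, and the counts of both sorted groups overlapped or touched those of the live control.

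In all 6 libraries 47 histone genes were open, which is 68.1% of them, against 40.6% of all protein-coding genes. Another 13 were open in no library, against a background of 45.0% of all genes. By class, 2 of 6 H1, 13 of 17 H2A, 16 of 18 H2B, 9 of 13 H3 and 7 of 15 H4 genes were open in all 6. The H2B genes were the most uniform class, with the same 16 of 18 open in each library. Of the 7 non-histone genes inside the clusters, 1 (TRIM38) was open in all 6 libraries, and SLC17A2, SLC17A3 and SLC17A4, which encode transporters, were open in none.

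**Figure D2:**
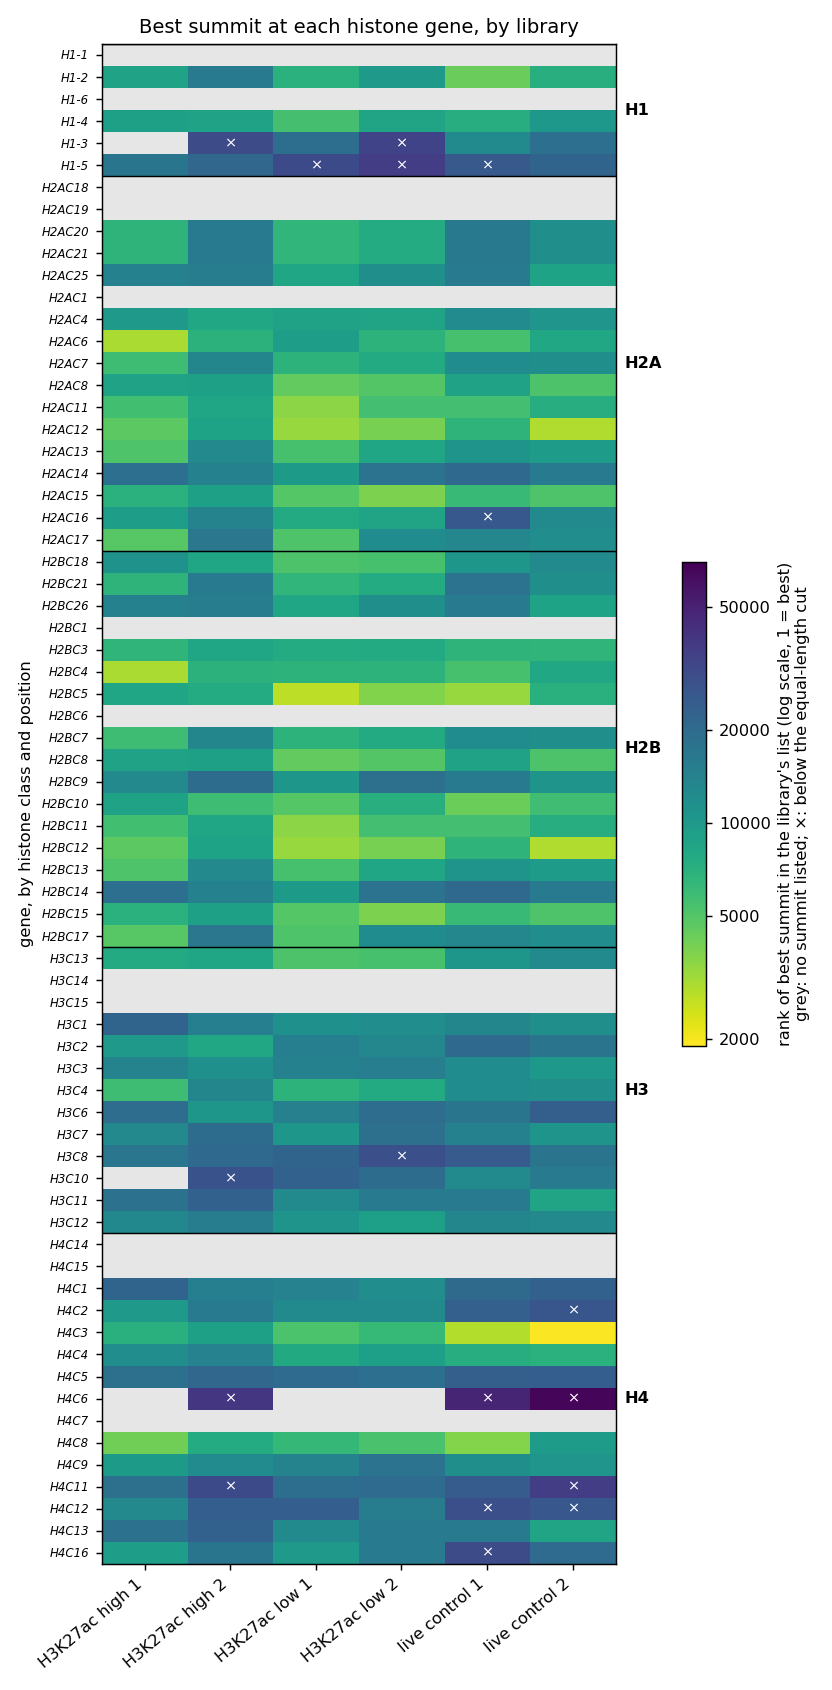
Rank of the best summit within 1 kb of either end of each of the 69 histone genes (rows, by class and position) in each library (columns), on a log colour scale where yellow is best. Grey cells have no summit in the library's whole list and crosses mark a summit ranked below 24798. The grey rows are the 12 genes with no summit in any list, and most H2A and H2B rows are coloured without a cross in every column.

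The open genes rest on fewer summits than genes, because neighbours share them. The 54 and 53 open genes of the high libraries had 37 and 35 distinct best summits, against 40 and 36 for H3K27ac low and 38 and 37 for the live control. In all, 14 pairs and 2 triples of genes shared a best summit in at least 1 library, and 22 genes shared none. Counts of genes therefore overstate the number of separate open sites.

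The top 12399 summits of each list covered 36 and 23 histone genes in H3K27ac high, 41 and 37 in H3K27ac low and 29 and 38 in the live control. Replicate 2 of the high sort stood lowest here, with 6 of 17 H2A genes and 9 of 18 H2B genes, against 12 and 13 in replicate 1. Over all genes the same cut gave 6178 and 6846 in high, 7696 and 7601 in low and 7094 and 7012 in the live control. The high libraries lay below both low libraries for the histone genes, as they did for all genes.

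**Figure D3:**
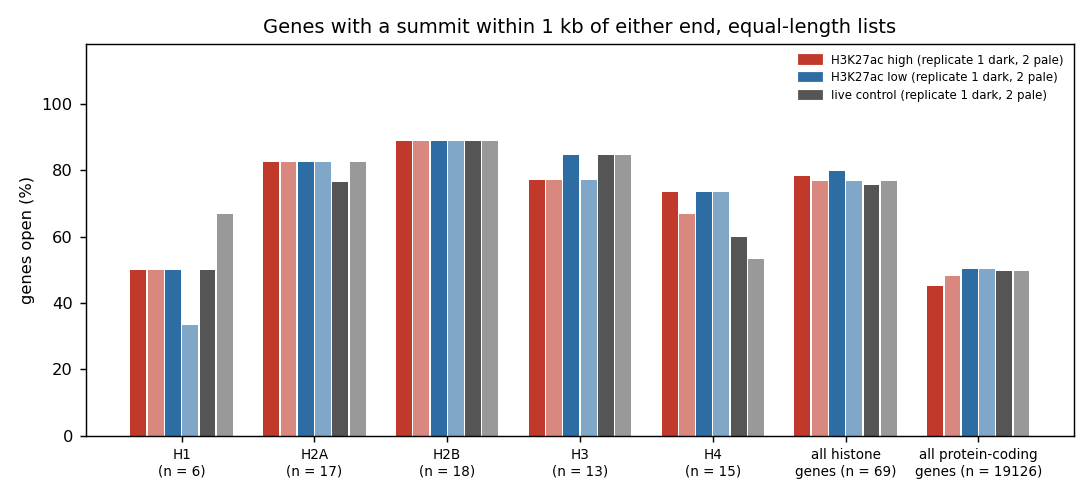
Share of genes open (percent, from 0) in each class and over all histone and all protein-coding genes, with 1 bar per library and n the number of genes. H2B stands at 88.9% in all 6 libraries, and H4 at 73.3% and 66.7% in high, 73.3% and 73.3% in low and 60% and 53.3% in the live control.

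Linker histone H1 genes differed among themselves. H1-2 and H1-4, both widely expressed H1 genes, were open in all 6 libraries, whereas H1-1 and H1-6 had no summit within 1 kb in any whole list. The best summit within 1 kb of H1-2 ranked 8803 and 15725 in high, 7028 and 9887 in low and 4355 and 7163 in the live control. These summits did not lie at the same place. In the high libraries they stood 964 and 1005 bp downstream of the start, which is 234 and 275 bp beyond the far end of this 731 bp gene, and in both low and both live libraries they stood 64 to 81 bp downstream.

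For this reason summits within 300 bp of the annotated start were also counted, for the 64 genes with a matched start. H1 genes with a start summit in the cut list numbered 1 and 1 of 6 in H3K27ac high, 3 and 2 in H3K27ac low and 3 and 4 in the live control. Over all protein-coding genes with a start the share was 40.9% and 43.7% in high, 46.0% and 45.7% in low and 44.2% and 44.1% in the live control, so the high libraries were lowest there too. In the whole lists the H1 counts were 1 and 3 in high, 4 and 4 in low and 4 and 4 in the live control. H1-2 had no start summit in either whole high list, and it had one in both low and both live libraries. At H1-4 the start summit ranked 22121 and 35486 in high, 14656 and 14732 in low and 7434 and 10223 in the live control. The H1-4 ranks of the 3 groups did not overlap, and replicate 2 of high was past the cut. How often this happens over all genes was not determined. In all 4 sorted libraries the best summit within 1 kb of H1-4 lay 1585 to 1728 bp downstream, at the start of its neighbour H2BC5, and in high replicate 2 H1-4 was open only through that site.

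H1-3 had no start summit in the whole list of high replicate 1 and one at rank 35068 in high replicate 2. Its start summit ranked 19120 and 35418 in low and 12378 and 18665 in the live control. It was thus inside the cut in no high library, in 1 low library and in both live libraries. H1-5 had a start summit at rank 21362 in high replicate 2 and none in high replicate 1, at 33722 and 36190 in low and at 25460 and 22001 in the live control. Unlike the other 3 genes it had no low library inside the cut, and its groups overlapped.

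**Figure D4:**
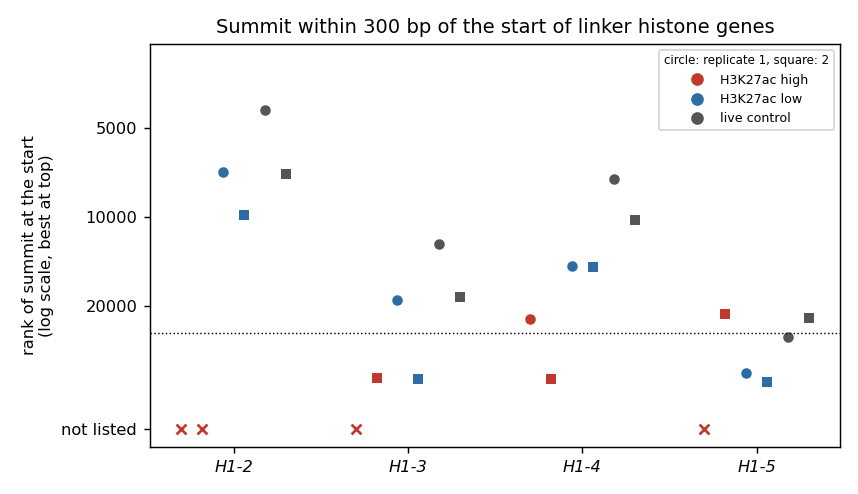
Rank of the summit within 300 bp of the start of 4 linker histone genes (log axis, best at the top), with high, low and live libraries from left to right within each gene. The dotted line is the cut at rank 24798 and crosses mark a library with no such summit in its whole list. H1-2 has a cross in both high libraries, and at H1-4 both high points stand below both low points, which stand below both live points.

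Over all classes, 31 of 64 histone genes (48.4%) had a start summit in all 6 libraries, against 34.3% of 15101 protein-coding genes with a start. Only H2A (10 of 16, 62.5%) and H2B (14 of 18, 77.8%) stood above that background, and their pairs share summits. H1 (0 of 6), H3 (3 of 11, 27.3%) and H4 (4 of 13, 30.8%) stood below it. A start summit in both low and no high library was found at 3 genes, H1-2, H3C1 and H3C10, against a background of 1.5%. In both live and no high library it was found at 5, the same 3 genes with H1-3 and H3C7, against 1.46%. None had a start summit in both high and no low library (background 0.324%) or in both high and no live library (background 1.05%). H3C4 alone had one in both low and no live library (background 1.73%), and H3C7 alone in both live and no low library (background 0.854%).

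Those counts of start summits depend on the cut and on single libraries. In the whole lists high replicate 2 had a start summit at H1-3, H3C1, H3C7 and H3C10, and only 2 genes, H1-2 and H4C6, then had one in both live and no high library. Without high replicate 1, the low and no high count was 7 in place of 3. Without live replicate 2, the high and no live count was 4 in place of 0 and the low and no live count 6 in place of 1, and without live replicate 1 both counts were 2. The high and no live count was also 2 without high replicate 2. The live and no low count was 3 without low replicate 1 and 2 without live replicate 1, in place of 1. The high and no low count was 1 in place of 0 without any 1 of its 4 libraries. At H1-2 neither high list held a start summit at any rank.

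Counted by either gene end, the sorts differed at single genes. H1-5 was open in both high and neither low library, at ranks 17217 and 21362 in high, 30962 and 36190 in low and 25460 and 22001 in the live control (background 0.256%). In high replicate 1 that summit lay 1179 bp downstream of the start, past the far end of the gene. H3C10 was open in both low and neither high library (background 1.52%). It had no summit in high replicate 1 and ranked 28176 in high replicate 2, 22997 and 19424 in low and 12587 and 15730 in the live control.

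Against the live control, H1-3 and H3C10 were open in both live and neither high library (background 1.57%). H1-3 had no summit in high replicate 1 and ranked 30767 in high replicate 2, 19120 and 33788 in low and 12378 and 18665 in the live control. H4C12 was open in both high and neither live library (background 0.507%) and likewise in both low and neither live library (background 1.19%). Its ranks were 12806 and 23794 in high, 23876 and 15203 in low and 29212 and 26187 in the live control. No histone gene was open in both live and neither low library (background 0.758%). H4C12 was also the single gene open in all 4 sorted and no live library (background 0.329%), and none was open in both live and no sorted library (background 0.366%). Each of these counts is 0 to 2 of 69 genes, where 1 gene makes 1.45% and 2 genes 2.9%. The shares stood above some backgrounds and below others, and counts this small allow no more to be read.

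H2A and H2B form the core particle's paired dimer, and their genes held most of the best ranks. Of the 10 best-placed sites, ranked by their worst rank over the 6 libraries, 8 were at H2A or H2B genes. These classes make up 17 and 18 of the 69 genes, so they would hold many of the 10 in any case. H2BC4 came first, with ranks of 3022 and 6926 in high, 6757 and 6797 in low and 5437 and 8012 in the live control. In low replicate 1 that summit lay 787 bp downstream of its start, and the start summit it shares with H2AC6 ranked 9324 there. H2BC3 was the steadiest of these, at 6639 and 8265 in high, 7588 and 7731 in low and 6746 and 6626 in the live control. H2BC5 is another of them, but its best summit lay 13825 to 13858 bp downstream, near the far end of its long annotated form. At its start it ranked 8990 and 8754 in high, 5520 and 8542 in low and 13041 and 11582 in the live control.

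The pair H2BC11 and H2AC11, whose shared region is printed above, ranked 5660 and 8418 in high, 3575 and 5555 in low and 5601 and 7432 in the live control. H2BC12 and H2AC12 ranked 4731 and 8643 in high, 3326 and 3973 in low and 6667 and 2919 in the live control. In both pairs the low libraries stood ahead of the high libraries, while the live libraries overlapped one or both sorts. H2BC10 ranked 8744 and 5793 in high, 4918 and 7152 in low and 4267 and 5717 in the live control.

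H2BC8 and H2AC8 ranked 8765 and 9056 in high, 4497 and 5018 in low and 8701 and 5180 in the live control. H2AC15 and H2BC15, whose shared region has no octamer, ranked 7036 and 9058 in high, 4922 and 3893 in low and 6070 and 5096 in the live control. Both pairs ranked better in both low than in both high libraries. The pair with an octamer and the pair without one were open in every library at similar ranks. Both were named because they are among the best-placed sites, so this likeness follows from how they were chosen. Whether the octamer bears on openness or rank was not tested.

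Head-to-head H2A and H2B genes with matched starts made 11 pairs, with starts 194 to 248 bp apart (median 236). H2BC12 and H2AC12 are not among these, because H2AC12 had no matched start. Of the 11 pairs, 10 were open in all 6 libraries, the exception being the germ line pair H2AC1 and H2BC1. The pair's best summit was the same for both genes and lay between the 2 starts in 10 and 9 of 11 pairs in H3K27ac high, 9 and 9 in H3K27ac low and 5 and 6 in the live control. As shares these are 90.9% and 81.8% in high, 81.8% and 81.8% in low and 45.5% and 54.5% in the live control. In the other 688 head-to-head pairs of protein-coding genes the shares were 53.6% and 58.9% in high, 59.7% and 62.5% in low and 53.9% and 53.5% in the live control. Starts in those pairs were 1 to 498 bp apart (median 158), and 519 of the 688 were open in all 6 libraries. They are therefore not matched to the histone pairs in spacing or openness. The counts of sorted and live libraries did not overlap at the histone pairs, but they depend on an edge set at the starts. Some live summits lay just past a start, by 18 bp at H2BC14 (replicate 1) and 19 bp at H2BC4 (replicate 2). At H2AC11 (replicate 2) it was 24 bp and at H2BC7 39 and 40 bp. Others lay further out, by 75 bp at H2AC17 and 221 bp at H2BC8 (both replicate 1). No other edge was tried.

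Summits outside that stretch lay past one of the starts. A pair whose genes had different best summits also did not count. This was so for H2BC21 and H2AC20 in live replicate 1 and for H2BC4 and H2AC6 in low replicate 1. At H2AC7 and H2BC7 the summit lay 24 and 30 bp from the centre of the stretch in high, 28 and 16 bp in low and 150 and 152 bp in the live control. At H2BC8 and H2AC8 the offset from the centre was -28 and -168 bp in high, -22 and -158 bp in low and -338 and -158 bp in the live control. Replicates of a sort could therefore differ as much as sort and control did. In all 6 libraries the summit lay between the starts in 3 histone pairs (27.3%). These were H2AC25 and H2BC26, H2BC13 and H2AC13, and H2AC15 and H2BC15. The share over all 699 head-to-head pairs was 39.5%, again without matching for spacing or openness.

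**Figure D5:**
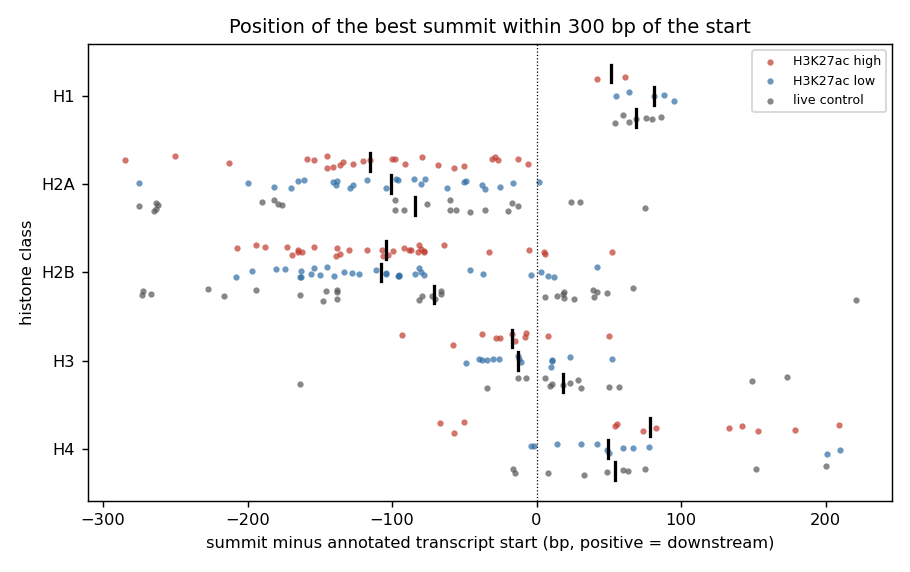
Distance of the best summit within 300 bp from the annotated start (horizontal axis, bp, positive downstream) for each gene and library, by histone class and with high, low and live from top to bottom within a class; black bars are medians. H2A and H2B summits lie mostly upstream of the start, H1 summits all downstream, and H3 summits around it.

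The position of the start summit differed by class. Over all libraries the median was -98.0 bp for H2A (75 values) and -101.0 bp for H2B (94 values), where minus is upstream, which places both within the stretch that a pair shares. For H3 it was -7.5 bp, with values from -164 to 173 bp (40 values). For H1 all 14 values lay 42 to 95 bp downstream, with a median of 66.5 bp. For H4 the median was 58.0 bp downstream, with a range of -67 to 210 bp (34 values). Libraries share the same genes, so these values are not independent of one another.

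H3 genes encode the core histone whose tail carries the mark used for sorting. Their best summits ranked behind those of H2A and H2B in every library, with per-library medians over the 13 genes of 17075 and 15259 in high, 14323 and 15932 in low and 14374 and 12780 in the live control. H3C3 was open at its start throughout, at ranks 13926 and 11431 in high, 14323 and 15016 in low and 12137 and 10254 in the live control. H3C2 behaved differently, with start ranks of 9948 and 8115 in high, 14814 and 13121 in low and 20390 and 17418 in the live control. H3C2 ranked best in high and last in the live control with no overlap, the opposite order to H1-4. Neither order was compared with how often such separation occurs over all genes.

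At H3C1 the start summit was missing from high replicate 1 and ranked 29388 in high replicate 2, 11418 and 16009 in low and 13416 and 11581 in the live control. H3C1 still counted as open in every library, since another summit lay 907 and 1016 bp downstream of its start in the high libraries, past its far end and towards H4C1. H3C7 likewise counted as open everywhere, mostly through a summit at the start of its neighbour H2BC9. At its own start it had none in high replicate 1 and ranked 33998 in high replicate 2, 31955 and 33207 in low and 14374 and 18253 in the live control. The bases before H3C3 (chr6:26045264-26045383, plus strand) and H3C10 (chr6:27809931-27810050, plus strand) show a stable and a variable H3 gene, each with repeated CCAAT boxes.
H3C3: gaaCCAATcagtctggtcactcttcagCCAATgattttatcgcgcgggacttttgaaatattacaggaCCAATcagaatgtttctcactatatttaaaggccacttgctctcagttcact
H3C10: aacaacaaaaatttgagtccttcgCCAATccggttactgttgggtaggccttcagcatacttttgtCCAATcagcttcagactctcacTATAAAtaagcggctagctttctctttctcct

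H4 genes encode the histone that forms the central tetramer with H3, and at this cut more of them were open in each sorted than in each live library. Of 15 genes, 11 and 10 were open in H3K27ac high, 11 and 11 in H3K27ac low and 9 and 8 in the live control. The mean was 10.5 ± 0.707 in high, 11 ± 0 in low and 8.5 ± 0.707 in the live control (SD, n = 2 each). Over all protein-coding genes 45.0% and 48.1% were open in high, 50.2% and 50.2% in low and 49.6% and 49.5% in the live control. The H4 separation did not hold at other list lengths. The top 12399 summits gave 6 and 3 H4 genes in high, 4 and 4 in low and 4 and 5 in the live control, and the whole lists 11 and 12 in high, 11 and 11 in low and 12 and 12 in the live control. The genes open in sorted cells and missing from a live library were H4C2, H4C11, H4C12 and H4C16, and each but H4C12 was missing from 1 live library alone. H4C11 was also past the cut in high replicate 2. H4C2 ranked 9963 and 16147 in high, 12474 and 12706 in low and 23037 and 26558 in the live control. H4C16 ranked 9252 and 17195 in high, 9892 and 15810 in low and 30477 and 19864 in the live control. All 4 of these genes kept a summit in both whole live lists, so the difference is one of rank around the cut.

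Not every H4 gene ran that way. H4C3 ranked 7071 and 9020 in high, 5287 and 6239 in low and 2886 and 1940 in the live control, the best rank of any histone gene. H4C4 ranked 11984 and 14114 in high, 7866 and 9200 in low and 7416 and 7021 in the live control. Both genes ranked last in high, next in low and best in the live control, with no overlap. How often such an order occurs over all genes was not determined. H4C8 ranked 4182 and 7649 in high, 6317 and 5364 in low and 3705 and 9481 in the live control, and its groups overlapped.

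Near-identical promoters limit what can be read at some genes. The 300-base promoters of H4C14 and H4C15 were 100.0% identical, those of H2AC18 and H2AC19 99.33%, those of H4C11 and H4C12 98.33% and those of H3C14 and H3C15 97.33%. Short reads from such copies may be placed at either or neither, and how the authors' processing treated them is not given in the sources used here. The 6 genes H4C14, H4C15, H2AC18, H2AC19, H3C14 and H3C15 lie together on chromosome 1 at 149832657 to 149861240, and none had a summit within 1 kb in any whole list. Inside that 28.6 kb block the 6 lists held 3 summits, all at about the same place, from 149845617 to 149845629. Their ranks were 19542 in high replicate 1, 30468 in low replicate 2 and 65604 in live replicate 1. Whether these 6 genes are closed or only unreadable was not tested.

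H4C11 and H4C12, the other near-identical pair, did have summits. Neither had a start summit in any cut list. The best summit of H4C11 lay 377 to 724 bp downstream of its start and that of H4C12 377 to 624 bp downstream in 5 libraries and 27 bp upstream in live replicate 1. H4C11 ranked 18362 and 31261 in high, 18933 and 19814 in low and 24668 and 36516 in the live control. Their values are uncertain in the same way, since reads of one copy can count for the other.

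Another 6 genes had no summit in any whole list and no near-identical copy among the members. H2AC1 and H2BC1, the germ line pair, had their nearest summit 5453 and 6167 bp away. H1-1 and H1-6 had theirs 2666 and 3286 bp away. H2BC6 and H4C7 are the remaining 2, with the nearest summit 4840 and 3122 bp away. The germ line pair has TATA, CCAAT and octamer matches in its shared stretch. H4C6 was close to this state, with ranks of 39421 in high replicate 2 and 47966 and 66735 in the live control and no summit in the other 3 lists.

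H2BC6 and H2BC10 are printed as an H2B gene with no summit and an open one, from chr6:26183641-26183760 and chr6:26272811-26272930, both on the plus strand. Both have an octamer, and a CCAAT box lies within the printed bases of H2BC10 alone. H2BC6 has its CCAAT box at -137 from its start, outside the printed bases, so both promoters hold one.
H2BC6: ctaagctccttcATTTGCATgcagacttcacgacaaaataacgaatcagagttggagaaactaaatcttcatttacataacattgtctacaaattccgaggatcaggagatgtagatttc
H2BC10: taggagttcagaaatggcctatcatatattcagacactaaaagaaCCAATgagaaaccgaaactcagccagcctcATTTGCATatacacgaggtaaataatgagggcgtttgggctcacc

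Genes that control histone supply were open more uniformly than the histone genes. Of 25 listed regulators, 22 were open in all 6 libraries, the exceptions being LSM10, CCNE2 and CHAF1B. NPAT ranked 321 and 450 in high, 246 and 405 in low and 795 and 1040 in the live control. HINFP, which binds H4 site II, ranked 722 and 1308 in high, 500 and 278 in low and 324 and 375 in the live control. SLBP, the stem-loop binding protein, ranked 4980 and 3084 in high, 2748 and 2240 in low and 3458 and 4138 in the live control. NPAT and HINFP thus ranked ahead of all 69 histone genes in every library.

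Replication-independent histone genes encode variants made throughout the cell cycle, and 8 of 12 were open in all 6 libraries. H2AZ2 ranked 1733 and 1028 in high, 252 and 393 in low and 534 and 431 in the live control. H2AX, a variant known from DNA damage signalling, ranked 3601 and 4056 in high, 1206 and 2050 in low and 2714 and 3812 in the live control. Both ranked last in high and best in low, though at H2AX the live range reached into the high range. The testis gene H3-5 and MACROH2A2 had no summit in any whole list.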

How the data were processed

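Accessibility was measured in 6 GM12878 libraries, grouped by their titles. Per the submitters' processing notes, bcl2fastq, FastQC, Bowtie2, Picard and MACS2 were used, with builds hg38 and hg19 named and no versions. No source used here gives settings, the Tn5 shift, or the handling of duplicates and of reads with several placements. The deposited lists give summits, 1 base each on hg38, with a score that was read as the −log10 of the authors' q-value or p-value. Peaks were listed per library, not pooled. The staining protocol writes H3K37ac, which was read as H3K27ac.

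Lists on chromosomes 1 to 22 were ranked by score, with ties broken by a seeded draw, and cut to 24798 summits. Windows were 1 kb from either gene end, or 300 bp from the start, the second added after the data were seen. Where 2 genes had the same annotated 5′ end, a start not shared was used. Depth is unknown, so no counting interval could be given. The members, gene lists and motifs were chosen with earlier results of these data known. Values per library were named for the 10 best-placed sites, genes separating groups, genes with no summit, near-identical promoters (90% or more) and germ line genes, and further class examples were chosen after their values were seen. Promoters were aligned with edlib 1.3.9, and tables were made in Python 3.11.15 with pandas 2.3.3. The calling step was checked on simulated lists.

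Whether libraries with the same replicate number were handled together is not stated in the sources used here, and they were not treated as pairs. Across 7763 genes open in all libraries, the replicate differences of log2 rank correlated at 0.085 between high and low, 0.026 between high and live and -0.004 between low and live.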

Additional observations from a re-analysis of the deposited data

How the results depend on the processing

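The number of histone genes open in all libraries was 47 and stayed between 47 and 49 with any library left out. It was 17 with the best 12399 summits of each list (called the shorter lists) and 24 when each summit counted only for the nearest gene. The share of all genes open in all libraries was not determined for these settings. In the shorter lists 52.2% and 33.3% of histone genes were open in high, 59.4% and 53.6% in low and 42.0% and 55.1% in the live control. Over all genes the shares were 32.3% and 35.8% in high, 40.2% and 39.7% in low and 37.1% and 36.7% in the live control. The high minus low difference of -0.5 genes became -9.5 with the shorter lists and -2.5 with the nearest gene, and ran from -1.5 to 0.5 with a library left out, turning sign without low replicate 1. The high minus live difference of 1.0 turned sign with full lists (-1.5), the shorter lists (-4.0), a 500 bp window (-0.5) and the nearest gene (-0.5), and was 2.5 with a 2500 bp window. The low minus live difference of 1.5 was -1.0 with full lists, 5.5 with the shorter lists and 3.0 with a 2500 bp window. The cause was not tested. Averaging the differences within replicate numbers returns the same group differences by construction, so that setting tests nothing. Within replicate numbers 1 and 2 the differences were -1.0 and 0.0 genes for high minus low. They were 2.0 and 0.0 for high minus live and 3.0 and 0.0 for low minus live. The median rank of the 69 genes differed by 2241.5 places for high minus low, and by 1124.0 and 3359.0 within replicate numbers 1 and 2. That median difference ran from 85.5 to 4397.5 with a library left out.

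Counts of genes that separate 2 groups were small and unstable. For high and no low they were 1 as reported, 0 with full lists, 2 with the shorter lists, 0 at 2500 bp and 1 to 2 with a library left out. For low and no high they were 1, 0, 4 and 0, with 2 for the nearest gene and 1 to 2 with a library left out. For high and no live they were 1, then 0 with full lists, 3 for the nearest gene and 1 to 4 with a library left out. For live and no high they were 2, then 0 with full lists, 0 with the shorter lists, 1 at 2500 bp and 6 for the nearest gene. For low and no live they were 1, then 0 with full lists, 2 with the shorter lists, 2 for the nearest gene and 1 to 3 with a library left out. For live and no low they were 0, then 1 with full lists, 2 with the shorter lists, 1 at 500 bp, 1 for the nearest gene and 0 to 2 with a library left out. Over these results and their alternatives, 36 values moved by more than the replicate spread or 1.5 times, 6 turned sign and the other 72 did neither. The 72 include the averages within replicate numbers, which could not change. Start summits, added after the data were seen, were found in all libraries at 31 genes within 300 bp and at 14 within 150 bp. Shared summits make neighbouring genes depend on each other, and read depth, which could move every rank, is unknown.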
